A study of Homo sapiens with 4 samples.

Results

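Glycolytic enzymes and hypoxia targets were followed in MCF12A cells after deletion of the p2 promoter of *C1orf132*. The set held 10 of the 16811 genes with a normalized value, and all 10 were found by their symbol. They are 7 glycolytic enzymes, taken in pathway order (*HK2*, *PFKP*, *ALDOA*, *GAPDH*, *PGK1*, *ENO1* and *LDHA*), and 3 genes known as targets of the hypoxia response (*CA9*, *VEGFA* and *NDRG1*). MCF12A is an immortal, non-tumorigenic line of human breast epithelium, although its label names it a breast cancer line. Wild-type cells (2 libraries, genotype label wild type) were compared with edited cells (2 libraries, genotype label *C1orf132* KO), whose p2 promoter region had been removed with CRISPR/Cas9. Both groups grew in the same DMEM/F12 medium with horse serum, EGF, hydrocortisone, cholera toxin and insulin. The edited colonies came from sorted single cells, so the edited cells may stand for 1 clone, and the colony behind each library is not given in the sources used here.

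Glycolysis breaks glucose down to pyruvate in the cytosol, and lactate dehydrogenase reduces pyruvate to lactate so that the pathway can go on when oxygen is short or glucose use is high. Hypoxia-inducible factors (HIF) are stabilised when oxygen falls, because prolyl hydroxylases then no longer mark the alpha subunit for destruction. They bind a short DNA core and raise transcription of many glycolytic genes, of carbonic anhydrase and of *VEGFA*.

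The promoters of the genes with the largest differences in each branch that are held in RefSeq for GRCh38.p14 are shown, since the core that HIF binds can be read in them. The 250 bases before the annotated start are given 5′ to 3′ in the direction of transcription. Capitals mark ACGTG or GCGTG on either strand, and overlapping matches of both strands (as in CACGTG) were counted separately.

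LDHA, chr11:18394313-18394562, plus strand: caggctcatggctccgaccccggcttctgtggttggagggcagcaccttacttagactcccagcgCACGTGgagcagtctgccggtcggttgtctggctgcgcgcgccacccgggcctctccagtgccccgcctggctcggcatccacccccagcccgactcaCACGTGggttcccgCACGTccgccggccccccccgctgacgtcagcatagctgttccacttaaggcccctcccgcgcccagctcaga

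ENO1, chr1:8878687-8878936, minus strand: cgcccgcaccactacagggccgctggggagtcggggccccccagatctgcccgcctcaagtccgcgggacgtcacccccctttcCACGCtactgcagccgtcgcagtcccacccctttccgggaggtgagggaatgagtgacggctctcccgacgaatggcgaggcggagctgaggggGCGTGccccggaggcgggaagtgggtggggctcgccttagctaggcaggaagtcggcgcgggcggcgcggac

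CA9, chr9:35673678-35673927, plus strand: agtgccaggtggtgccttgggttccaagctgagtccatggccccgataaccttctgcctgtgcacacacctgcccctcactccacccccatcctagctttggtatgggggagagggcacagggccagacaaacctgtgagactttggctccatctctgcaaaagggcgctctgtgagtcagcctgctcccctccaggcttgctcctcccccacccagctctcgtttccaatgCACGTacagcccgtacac

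The *LDHA* window shown held 5 matches, the *ENO1* window 2 and the *CA9* window 1. A further *LDHA* start site, whose window is not shown, had 1 match. Among the promoters searched 8 of the 10 genes were matched (not *VEGFA* or *NDRG1*), with 15 start sites in all. Windows of chromosome 8, which holds *NDRG1*, were left out before the search, so *NDRG1* could not be matched. At least 1 match lay in 13 of the 15 windows, against 43.2% of the 35116 windows of the same length that were counted. The 15 windows belong to 8 genes chosen for these pathways, so this is a description and was not tested. A match is a string of letters and does not show that a factor was bound.

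Poly(A)-selected RNA gave single-end reads of 75 bases. The deposited values are expression signals per transcript length, so levels of different genes can be set side by side. Wherever a group has a pair of values, replicate 1 comes first. All values of a library summed to between 1444644 and 1655437 per library, which is not the depth. Steps between low values put the depth of the other libraries at 0.930 to 1.12 times that of edited replicate 1. *C1orf132* was not analysed here, and the groups rest on their labels alone. The summed value of 10 mammary epithelial markers was 4936 and 5884 (edited) against 11614 and 20653 (wild-type). Of 9 of these markers that were tested, 4 fell and 1 rose at an adjusted p under 0.05. The 1 that rose was the keratin gene *KRT8*, at 378 and 365 (edited) against 194 and 175 (wild-type, limma adjusted p = 0.0449). The basal keratin *KRT5*, a large part of these sums, was listed at 3514 and 3056 (edited) against 4590 and 11914 (wild-type). It did not pass (limma adjusted p = 0.146). *CDH1*, which encodes E-cadherin, was at 3.89 and 1.54 (edited) against 150 and 123 (wild-type). Of 8 fibroblast markers 2 were listed, with sums of 18.3 and 111 (edited) against 23.0 and 29.2 (wild-type). Of this pair the collagen gene *COL1A1* fell, from 15.6 and 28.1 (wild-type) to 3.19 and 5.58 (edited, limma adjusted p = 0.0420). The proteoglycan gene *DCN* did not pass, at 15.1 and 105 (edited) against 7.42 and 1.09 (wild-type). In all, 0 of 4 endothelial and 0 of 4 immune markers were listed. The 37 mitochondrially encoded genes made up 11.8% and 9.27% (edited) against 9.13% and 12.2% (wild-type) of the summed values. The part of these shifts in the results below was not tested. In bulk RNA, fewer cells of one type and less RNA per cell cannot be told apart.

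The first question was whether the 10 genes stood at other levels in edited than in wild-type cells. The 6 glycolytic enzymes that passed the filter on low values had estimates above 0 in edited cells, from 0.10 for *PFKP* to 0.90 for *ENO1* on the log2 scale. The 3 hypoxia targets had estimates below 0, from -0.31 for *VEGFA* to -2.38 for *CA9*. Groups were compared by limma on the log2(value + 1) scale, which understates changes of low genes, and p was adjusted by Benjamini-Hochberg across the 9590 genes whose mean over the 4 libraries reached 10. Of the 10 genes, 9 passed this filter. At an adjusted p under 0.05, 0 of these 9 were called (nor was *HK2* in a fit without the filter), while 7.09% of all tested genes were (277 higher and 403 lower). At an unadjusted p under 0.05, 4 of the 9 passed (*GAPDH*, *ENO1*, *LDHA* and *NDRG1*), against 32.3% of all tested genes. Both edited libraries lay above both wild-type libraries for 5 of the 9, a pattern shown by 38.3% of tested genes, and below them for 1, a pattern shown by 26.9%. The median log2 fold change was 0.51 over the 6 enzymes and -2.32 over the 3 hypoxia targets, of which *CA9* passed the filter through 1 library, beside 0.09 over all tested genes. With 2 libraries a group, 0.333 is the smallest p that an exact two-sided permutation test allows, and the adjusted p of a gene draws on the variance that limma shares across genes.

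**Figure D1:**
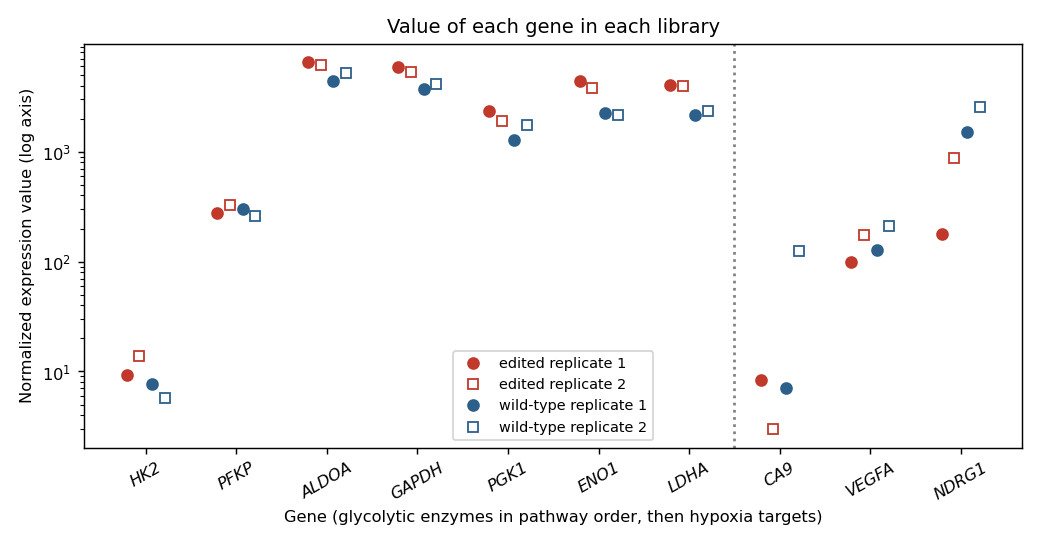
Normalized value (log axis) of the 10 genes in each of the 4 libraries, with edited libraries in red, wild-type libraries in blue, replicate 1 as filled circles and replicate 2 as open squares. From *ALDOA* to *LDHA* the lowest point is 1282 (*PGK1*, wild-type replicate 1) and the edited points are on top, whereas *CA9* is below 10 in all libraries but wild-type replicate 2.

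*HK2* encodes hexokinase 2, the inducible enzyme that traps glucose as glucose 6-phosphate (chromosome 2, 74834127 to 74893359 in GRCh38.p14, as all gene positions here). Its value was 9.35 and 13.9 (edited) against 7.63 and 5.74 (wild-type), or about 458, 765, 348 and 281 reads. The groups did not overlap, edited replicate 2 being the highest library. Its mean over the 4 libraries was under 10, so it was tested among all 16811 genes. The log2 fold change was 0.71 ± 0.28 (limma, ± standard error, adjusted p = 0.169), where 4.73% of all genes were called and 31.4% had both edited libraries on top. *PFKP* encodes the platelet type of phosphofructokinase, which commits sugar to glycolysis (chromosome 10, 3067548 to 3136805). It stood at 278 and 328 (edited) against 302 and 262 (wild-type). The groups overlapped, and the log2 fold change of 0.10 ± 0.21 (limma, ± standard error, adjusted p = 0.772) had a 95% confidence interval from -0.43 to 0.63. Its sign turned with equal library totals (-0.017), quantile normalization (-0.11) and cyclic loess (-0.21).

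*ALDOA* encodes aldolase A, which splits fructose 1,6-bisphosphate into a pair of triose phosphates (chromosome 16, 30064279 to 30070420). It was the most abundant of the 10 genes in every library, at 6506 and 6137 (edited) against 4430 and 5193 (wild-type). The groups did not overlap, and the ratio of their means was 1.31. limma gave a log2 fold change of 0.40 ± 0.20 (limma, ± standard error, adjusted p = 0.227). *GAPDH*, often used as a reference gene, encodes the dehydrogenase that oxidises glyceraldehyde 3-phosphate (chromosome 12, 6534517 to 6538371). Its value was 5915 and 5342 (edited) against 3694 and 4129 (wild-type), so both edited libraries were above both wild-type ones. The ratio of means was 1.44 and the log2 fold change 0.53 ± 0.20 (limma, ± standard error, adjusted p = 0.139). Its 95% confidence interval ran from 0.03 to 1.02. *PGK1* encodes phosphoglycerate kinase, the first step of the pathway that yields ATP (chromosome X, 78104248 to 78129295). It was listed at 2331 and 1913 (edited) against 1282 and 1732 (wild-type). The gap between edited replicate 2 and wild-type replicate 2 was smaller than the gap between replicates within either group. Its log2 fold change was 0.50 ± 0.25 (limma, ± standard error, adjusted p = 0.220).

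*ENO1* encodes enolase 1, which makes phosphoenolpyruvate (chromosome 1, 8861000 to 8878686), and its promoter is printed above. Its value was 4414 and 3808 (edited) against 2233 and 2153 (wild-type). The lowest edited library was far above the highest wild-type library, and the ratio of means was 1.87. The log2 fold change of 0.90 ± 0.20 (limma, ± standard error, 95% confidence interval 0.40 to 1.41, adjusted p = 0.0566) did not pass 0.05. It was under 0.05 when the genes tested were those with a mean of at least 50 (adjusted p = 0.0490) and with quantile normalization (adjusted p = 0.0498), and the highest adjusted p over the alternatives was 0.267. The block with crossed replicate numbers, added after seeing the data, gave 0.0428. *LDHA* encodes the A chain of lactate dehydrogenase (chromosome 11, 18394563 to 18408425). Its value was 4009 and 3940 (edited) against 2149 and 2357 (wild-type). Replicates lay close together and the groups were well apart, with a ratio of means of 1.76. Its log2 fold change was 0.82 ± 0.20 (limma, ± standard error, 95% confidence interval 0.33 to 1.31, adjusted p = 0.0635). A block with crossed replicate numbers, added after seeing the data, gave 0.0493, and over the other alternatives this p ranged from 0.0556 to 0.264. By mean value per length, *ALDOA* and *GAPDH* led the enzymes in both groups, and *LDHA* and *ENO1* followed. The means of *ENO1* and *LDHA* differed by less than the larger of their SDs in each group (4111 ± 428 and 3975 ± 49.0 in edited, 2193 ± 56.7 and 2253 ± 147 in wild-type cells, SD, n = 2). *PGK1*, *PFKP* and *HK2* came last in that order.

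**Figure D2:**
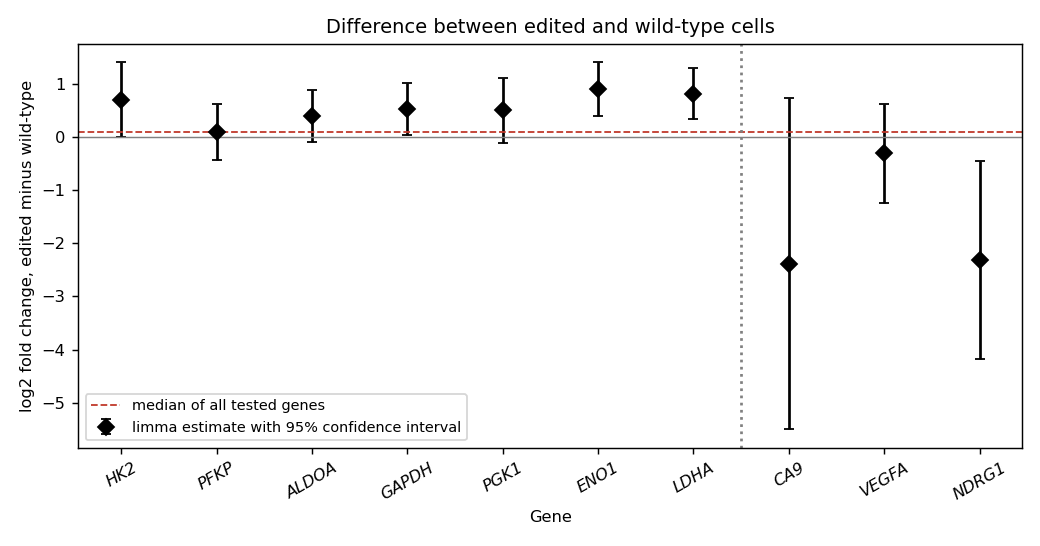
Estimated log2 fold change of edited over wild-type cells for each of the 10 genes (diamonds) with 95% confidence intervals from limma, the dashed line marking the median of all tested genes at 0.09. The intervals of *HK2*, *GAPDH*, *ENO1* and *LDHA* lie above 0 and that of *NDRG1* below 0, and the interval of *CA9* is the widest.

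Together the 7 enzymes summed to 23462 and 21483 (edited) against 14097 and 15832 (wild-type). As a share of all values in the library, which does not depend on the scaling between libraries, this was 1.42% and 1.30% (edited) against 0.879% and 1.10% (wild-type). Without the mitochondrially encoded genes the shares were 1.61%, 1.43%, 0.967% and 1.25%. The edited libraries were above the wild-type libraries on both scales. Relative to the median of all tested genes, the 6 tested enzymes were higher as deposited and with equal library totals, which moved that median by -0.12. With quantile normalization and with cyclic loess 5 of 6 were higher, the exception being *PFKP*. Reads that match pseudogenes can move between a gene and its copies, and 1 listed pseudogene carried the name of a member, a copy of *LDHA* at 0.257% or less of its value.

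The isozymes of these steps were compared within each library. Of the summed value of *HK1*, *HK2* and *HKDC1*, *HK2* made up 2.52% and 3.69% (edited) against 2.14% and 1.47% (wild-type). *HK1*, the constitutive hexokinase, carried most of the signal at 361 ± 2.19 in edited and 366 ± 25.8 in wild-type cells (SD, n = 2). The share of *PFKP* among the 3 phosphofructokinases was 51.6% and 58.1% (edited) against 51.8% and 46.1% (wild-type). These groups overlapped. *ALDOA* made up at least 98.7% of the 2 aldolases and *ENO1* at least 98.9% of the 3 enolases in every library. *LDHA* made up 59.6% and 66.3% of both lactate dehydrogenase chains in edited and 62.1% and 70.7% in wild-type cells, again with overlap. *LDHB*, the chain that favours lactate oxidation, was 2362 ± 507 in edited and 1143 ± 237 in wild-type cells (SD, n = 2), a log2 difference of 1.05 (limma adjusted p = 0.0715). Of the 5 isozyme shares tested, the exact two-sided permutation p was 0.333 for *HK2* and *ENO1*, the smallest that 2 against 2 libraries allow, and 0.667 for the others. After Benjamini-Hochberg adjustment over the 5 it was 0.667 for each.

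In both groups the replicates of each of the 3 hypoxia targets lay further apart on the log2 scale than those of any of the 6 tested enzymes. *CA9* encodes carbonic anhydrase IX, a membrane enzyme that hydrates carbon dioxide outside the cell and is scarcely made in cells with ample oxygen (chromosome 9, 35673928 to 35681159). It was listed at 8.44 and 2.98 (edited) against 7.07 and 125 (wild-type), or about 114, 45, 89 and 1685 reads. Wild-type replicate 2 stood alone, wild-type replicate 1 lay between the edited libraries, and the gene passed the filter on low values through that 1 library. Wild-type replicate 1 stood at -3.96 from replicate 2 on the log2 scale, and 6 of the 9590 tested genes had a larger gap in that group, where the median size was 0.24. The log2 fold change was -2.38 ± 1.25 (limma, ± standard error, adjusted p = 0.244), and without wild-type replicate 2 it was -0.40, with a ratio of means of 0.807. Over the tested genes, the patterns nearest to that of *CA9* across the 4 libraries, by Euclidean distance of centred log2(value + 1), were those of *AKR1B10* (1.18), *FABP5* (1.41) and *KRT16* (1.46). *KRT16*, a stress keratin of stratified epithelium, was listed at 14.9 and 7.48 (edited) against 49.8 and 289 (wild-type). *AKR1B10*, an aldo-keto reductase, was at 6.95, 4.62, 20.4 and 213, and *FABP5*, a fatty acid binding protein, at 247, 130, 232 and 1205 in the same order.

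*VEGFA* encodes the vascular endothelial growth factor that draws vessels towards tissue short of oxygen (chromosome 6, 43770211 to 43786487). It stood at 99.1 and 176 (edited) against 127 and 212 (wild-type). In both groups replicate 2 was the higher library and the groups overlapped. The log2 fold change of -0.31 ± 0.38 (limma, ± standard error, adjusted p = 0.603) became 0.10 without edited replicate 1 and 0.06 without wild-type replicate 2. *NDRG1* encodes a protein of stress and differentiation whose transcript rises under low oxygen (chromosome 8, 133237175 to 133297252). Its value was 177 and 878 (edited) against 1518 and 2569 (wild-type). Both edited libraries were below both wild-type libraries, but edited replicate 1 stood at -2.30 from edited replicate 2 on the log2 scale, a gap exceeded by 70 of the 9590 tested genes. The ratio of means was 0.258 and the log2 fold change -2.32 ± 0.75 (limma, ± standard error, 95% confidence interval -4.18 to -0.46, adjusted p = 0.104). Without edited replicate 2 it was -3.47, and without edited replicate 1 it was -1.17, each time with 1 edited library left. The ratio was 0.0867 and 0.429 in these cases.

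**Figure D3:**
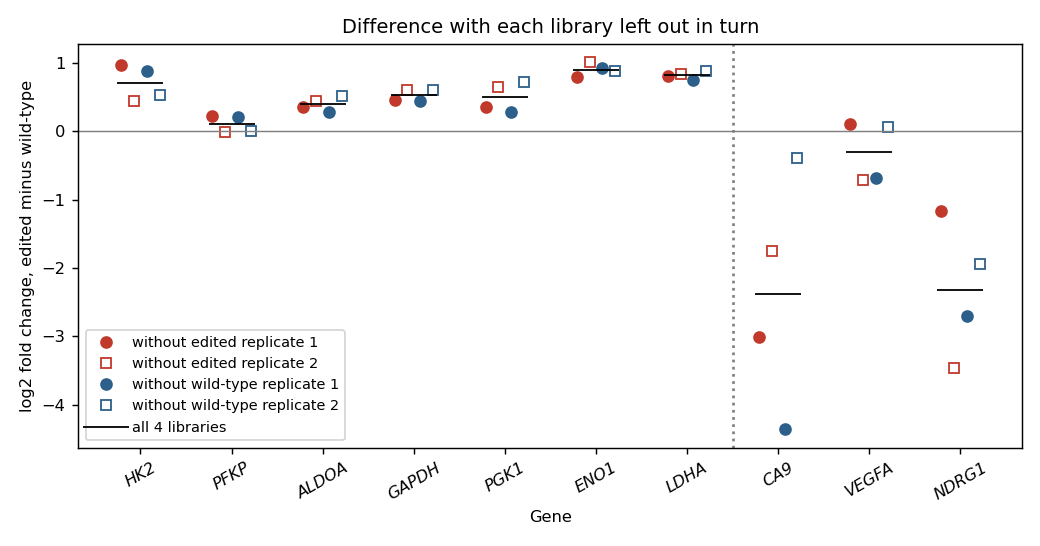
Log2 fold change of edited over wild-type cells for each of the 10 genes, from all 4 libraries (black bars) and after removal of 1 library at a time (symbols, coloured by the library removed). *ENO1* stays between 0.80 and 1.01 and *LDHA* between 0.75 and 0.89, while *CA9* moves from -4.36 to -0.40 and *VEGFA* crosses 0.

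Other genes of these pathways showed calls on both sides. The lists held 75 genes, of which 61 were tested and 10 (16.4%) were called, 4 higher and 6 lower in edited cells, where 7.09% of all tested genes were called, 277 higher and 403 lower. With the replicate numbers as a block the lists had 0 calls. Their median log2 fold change was 0.11, beside 0.09 over all tested genes. The lists were drawn up with results of these data known. Leaving out either wild-type library gave 0 calls in the lists (and 47 over all tested genes without replicate 1, and 4 without replicate 2). The lists had 5 calls without edited replicate 1, 14 without edited replicate 2, and 6 both with no filter and with a mean of at least 50.

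Among 12 other glycolytic enzymes tested, 0 were called by limma (2 had an unadjusted p under 0.05, both higher). The list had a median of 0.04 on the log2 scale, which went over the alternatives from -0.13 with cyclic loess to 0.35 with a mean of at least 50. This median covers a split, with 6 estimates above 0 and 6 below. Both edited libraries lay above both wild-type libraries for 4 of the 12 and below them for 4. All tested genes showed these patterns at 38.3% and 26.9%. *PKM*, the pyruvate kinase of most tissues, was 3984 ± 369 in edited and 2825 ± 508 in wild-type cells (SD, n = 2, log2 difference 0.50, limma adjusted p = 0.189). Of 4 glucose and lactate transport genes tested, 0 were called, 1 having an unadjusted p under 0.05 in each direction. *SLC2A1*, the glucose transporter GLUT1 and itself a known HIF target, was at 120 and 131 (edited) against 186 and 398 (wild-type). Its groups did not overlap, and wild-type replicate 2 was the highest library as for *CA9*, *VEGFA* and *NDRG1*. Its log2 difference was -1.11 (limma adjusted p = 0.114). Among 10 tested regulators and genes of pyruvate entry, 1 was called. It was *PDHB*, a subunit of the pyruvate dehydrogenase that feeds pyruvate to the mitochondrion, which rose from 52.5 ± 2.42 to 104 ± 11.2 (SD, n = 2, log2 difference 0.96, limma adjusted p = 0.0441). In the pentose phosphate pathway, which branches off after hexokinase and yields NADPH, 2 of 7 tested genes rose and 0 fell. The median log2 fold change was 0.62, falling to 0.39 with quantile normalization, 0.30 with cyclic loess and 0.44 without wild-type replicate 2. *PGD*, which encodes phosphogluconate dehydrogenase, was 486 ± 23.2 in edited and 226 ± 15.4 in wild-type cells (SD, n = 2, log2 difference 1.11, limma adjusted p = 0.0397).

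Among 12 other hypoxia targets tested, 0 rose and 2 fell. Their median log2 fold change was -0.24, and it turned to 0.07 without edited replicate 1 and was -0.62 without edited replicate 2. *P4HA1*, a collagen prolyl hydroxylase subunit, was 33.7 ± 10.0 in edited and 105 ± 11.4 in wild-type cells (SD, n = 2, log2 difference -1.64, limma adjusted p = 0.0285). *ERO1A*, an oxidase that forms disulfide bonds in the endoplasmic reticulum, was 108 ± 7.53 in edited and 236 ± 3.73 in wild-type cells (SD, n = 2, log2 difference -1.13, limma adjusted p = 0.0355). Of 9 tested genes of oxygen sensing, 1 rose and 1 fell. *EGLN3*, a prolyl hydroxylase that is itself induced by HIF, was at 11.6 and 13.7 (edited) against 34.4 and 75.4 (wild-type), a log2 difference of -1.94 (limma adjusted p = 0.0443). *CITED2*, which competes with HIF for a coactivator, rose from 30.6 ± 11.7 to 86.5 ± 15.4 (SD, n = 2, log2 difference 1.51, limma adjusted p = 0.0470). The transcripts of the alpha subunits were 413 ± 156 in edited and 451 ± 46.4 in wild-type cells for *HIF1A* and 384 ± 138 and 302 ± 14.6 for *EPAS1* (SD, n = 2, limma adjusted p = 0.726 and 0.511). HIF activity is set mainly at the protein, which RNA does not show.

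In the families of the hypoxia targets, *PGF*, the placental growth factor related to *VEGFA*, fell from 46.5 ± 9.92 to 12.2 ± 0.434 (SD, n = 2, log2 difference -1.83, limma adjusted p = 0.0151), the 1 gene called of 4 tested VEGF ligands and receptors. Of the 3 other NDRG genes 2 fell and the third did not pass. *NDRG2* was at 6.24 and 5.55 (edited) against 25.3 and 32.2 (wild-type), a log2 difference of -2.10 (limma adjusted p = 0.0131). *NDRG4* was at 5.00 and 8.31 (edited) against 18.9 and 21.6 (wild-type), a log2 difference of -1.50 (limma adjusted p = 0.0441). Replicates of *NDRG2* and *NDRG4* lay closer together than those of *NDRG1*.

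**Figure D4:**
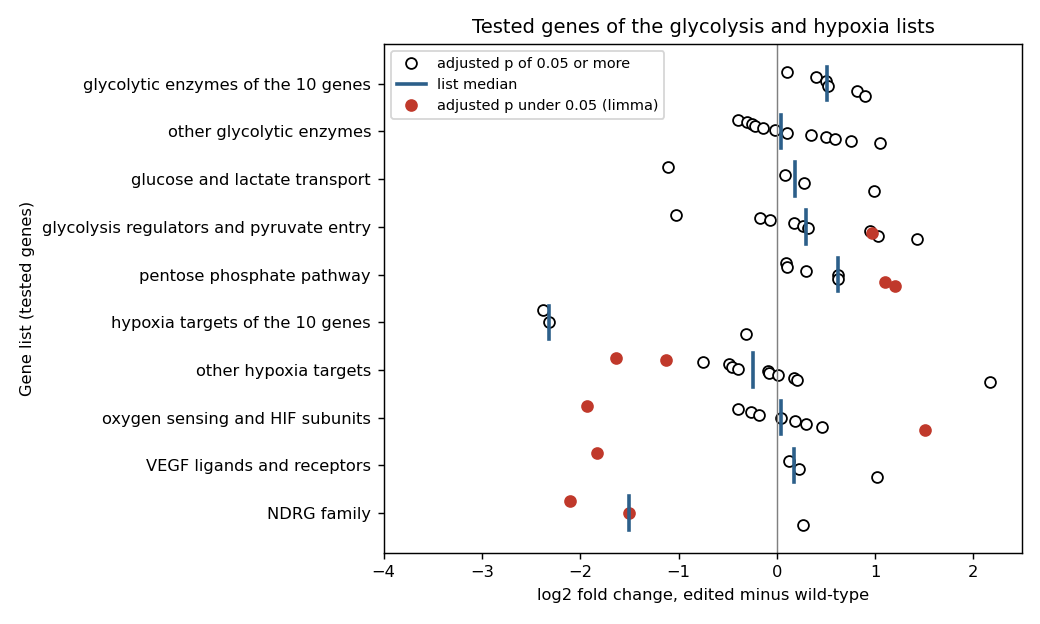
Log2 fold change of edited over wild-type cells for each tested gene of 10 lists (points), filled red where the adjusted p from limma was under 0.05, with the list median as a blue bar. Red points lie above 0 in the pyruvate entry and pentose phosphate lists and below 0, except *CITED2*, in the hypoxia, oxygen sensing, VEGF and NDRG lists.

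The 10 genes lie on 10 different chromosomes, and the median of the tested genes of each was set beside the member (8978 of 9590 tested genes, 93.6%, were placed by symbol). These medians lay between -0.27 (chromosome 9, which holds *CA9*) and 0.18 (chromosome 16, which holds *ALDOA*) from the median of all tested genes. *ALDOA* was 0.40 where its chromosome had a median of 0.27. *ENO1* and *LDHA* were 0.90 and 0.82 where theirs were 0.06 and 0.16, and *NDRG1* was -2.32 where its chromosome was at 0.06.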

How the data were processed

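RNA-seq was made from poly(A)-selected RNA of 2 edited and 2 wild-type MCF12A cultures. The authors deposited 1 table with an expression signal for 16811 genes by symbol. The submitters' processing notes name HISAT2, Salmon and hg38, without order, and the normalization is not given in the sources used here. Among 2634 genes with values of at most 3, 889 (33.8%) were whole multiples of 1 step in every library (relative tolerance 3.00e-06). Over 117 genes with 1 transcript, values under 10 and such multiples, the step fell with transcript length (Spearman rho -0.94 across genes), so the signal is scaled for length. Reads could not be read back for the rest, and no count test was used. Read numbers were estimated from the commonest step (16 of the 117 genes), which put 1 read per 1 kb of transcript at 0.102 to 0.124 by library, and from the canonical GENCODE transcript. They are rough.

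Genes whose mean reached 10 were fitted with limma 3.58.1 in R 4.3.3 (lmFit, eBayes with trend, pseudocount 1, no replicate block). A call needed an adjusted p under 0.05. The study's stricter 0.001 was an alternative, as were other pseudocounts, filters and scalings, the block and each library left out. The fit was tested on simulated data. Replicates are labelled as biological. p-values measure the spread between these libraries. Shares were tested with an exact permutation test (scipy 1.17.1). Named genes outside the 10 are list genes past the threshold, isozymes, *PKM*, *SLC2A1*, *HIF1A* and *EPAS1*. Other cell markers, and the 3 genes nearest to the gene with the largest change, were named for description. For 1 list gene past the threshold the result is not reported here. The 10 genes and the lists were chosen with earlier results of these data known. Positions and promoters came from RefSeq GRCh38.p14, the build of the processing notes, and promoter windows of chromosome 8 were left out of the counts.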

Additional observations from a re-analysis of the deposited data

How the results depend on the processing

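Counts of called genes moved with the setting, and the cause was not tested. Of the 10 genes, as far as tested, 1 was called with a mean of at least 50, where 419 of 4192 tested genes were. With quantile normalization 1 was called, where 736 of 9590 tested genes were. It was *ENO1* in both settings. With the replicate block 0 of the 10, 0 other pathway genes and 133 of all genes were called. The replicate numbers are only shared labels, and same-numbered libraries deviated with r = -0.14 across genes. With crossed numbers, chosen after seeing the data, 2 of the 10 and 1002 of all genes were called.

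Other pathway genes called were 6 with no filter, 6 with a mean of at least 50, 0 at an adjusted p under 0.001, and 0 to 14 with a library left out. All genes called were 419 with a mean of at least 50, 1 at 0.001, and from 4 (without wild-type replicate 2) to 1431 (without edited replicate 2) with a library left out. Members with both edited libraries above both wild-type libraries were 3 with cyclic loess, and those with both below were 2 (a count chosen after seeing the data). The share of all tested genes with these patterns was not counted under that setting, so these counts have no background. With a library left out 1 group holds 1 library, and such counts are not given. *PFKP* turned to -0.017 with equal totals, -0.11 with quantile normalization, -0.21 with cyclic loess and -0.017 without edited replicate 2. *VEGFA* turned to 0.10 without edited replicate 1 and to 0.06 when wild-type replicate 2 was removed. With a library left out the ranges were -0.017 to 0.22 for *PFKP* and -0.72 to 0.10 for *VEGFA*. The other 8 genes kept their sign under each alternative run. *CA9* and *HK2* have no value with a mean of at least 50. Read numbers are rough estimates, so no counting intervals were given. List medians also moved. With at least 1 setting the sign changed for the other glycolytic enzymes, other hypoxia targets, oxygen sensing genes, and VEGF ligands and receptors.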
